A study of Mus musculus with 8 samples.

Results

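Protein kinase A (PKA) is the kinase that cAMP switches on, and its subunit and inhibitor genes are described here in mouse oocytes at the germinal vesicle (GV) stage, before meiosis resumes and while the nuclear envelope is whole. The 9 genes are the catalytic subunits Prkaca and Prkacb, the regulatory subunits Prkar1a, Prkar1b, Prkar2a and Prkar2b, and the protein kinase inhibitors Pkia, Pkib and Pkig. Probe sets were taken where the platform annotation gives exactly 1 of these symbols, which found 26 of the 45101 probe sets in the deposited table, for 9 of the 18193 genes named there. Total RNA of 4 samples of untreated GV oocytes and of 4 samples kept in culture with milrinone for 48 h had been hybridised, 1 sample to each array, as 15 µg of biotinylated cRNA. Milrinone inhibits the phosphodiesterase encoded by Pde3a. Strain and age of the mice were not given in the sources used here. Replicates are not said to be separate animals or collections, so p-values reflect the spread among the samples alone, which may be technical. With no group cultured in the absence of milrinone, effects of the drug, of culture and of time cannot be told apart.

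In its resting form PKA is a pair of regulatory subunits that hold a pair of catalytic subunits inactive, and cAMP releases the catalytic subunits by binding the regulatory ones. In the mouse oocyte, cAMP made through the receptor Gpr3 and its G protein keeps PKA active, and active PKA holds the oocyte in meiotic arrest through the kinase encoded by Wee2 and the phosphatase encoded by Cdc25b. Type I regulatory subunits (Prkar1a, Prkar1b) are largely soluble, type II subunits (Prkar2a, Prkar2b) are mostly held at anchoring proteins, and the inhibitor proteins block free catalytic subunits by posing as a substrate. Free catalytic subunit also enters the nucleus and phosphorylates CREB, a transcription factor that binds the cAMP response element.

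That element was looked for in the members' RefSeq promoter windows of 300 bases (build GRCm38.p6), because PKA acts on gene expression through it. The full element, TGACGTCA, is the same on both strands and holds the half-site TGACG once on each strand. RefSeq gave 24 windows for 8 of the 9 genes and none for Pkia. Of all 32851 windows in the table, 1.79% hold the full element and 20.8% hold a half-site on either strand. Among the members the full element is in 2 overlapping windows of 1 gene, Prkar1a, and a half-site is in 8 windows of 6 genes. The Prkar1a window below lies at chr11:109650699-109650998 on the plus strand, and its full element begins 49 bases before the annotated start. The Prkar2b window lies at chr12:32061228-32061527 on the minus strand and is shown beside it because Prkar2b gave the largest differences among the members. Capitals mark the half-sites, 3 in Prkar1a, of which 2 overlap to form the full element, and 0 in Prkar2b. A match is a description of the letters and not evidence of binding.

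Prkar1a: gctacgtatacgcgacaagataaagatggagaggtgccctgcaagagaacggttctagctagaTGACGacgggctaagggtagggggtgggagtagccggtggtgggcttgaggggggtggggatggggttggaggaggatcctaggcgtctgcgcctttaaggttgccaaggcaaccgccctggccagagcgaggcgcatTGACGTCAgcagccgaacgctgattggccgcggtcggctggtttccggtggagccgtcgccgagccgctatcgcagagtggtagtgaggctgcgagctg
Prkar2b: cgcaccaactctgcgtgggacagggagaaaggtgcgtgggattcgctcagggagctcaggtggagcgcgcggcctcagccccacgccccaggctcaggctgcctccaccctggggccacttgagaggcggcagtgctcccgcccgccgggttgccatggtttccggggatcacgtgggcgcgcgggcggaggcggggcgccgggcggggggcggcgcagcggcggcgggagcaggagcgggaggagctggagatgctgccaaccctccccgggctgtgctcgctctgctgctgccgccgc

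Values are intensities on a linear scale, the brightness of a probe set after the authors' processing, and "listed" means that the table holds a value for a probe set on that array. The 8 arrays listed 18605 to 23269 probe sets each, most on untreated 1. Untreated 1 also stood apart from the rest, its correlations with the others having a median of 0.930 where those of the other 7 had medians of 0.966 to 0.980, so the difference of each PKA and each named pathway probe set is given with and without it. All 15 probe sets of 12 oocyte markers were listed on all 8 arrays, with a summed intensity of 130074 to 152946 in untreated and 132708 to 143822 in milrinone samples. Of 47 probe sets of 22 granulosa, cumulus and theca cell markers on the array, 25 to 36 were listed on the untreated and 11 to 19 on the milrinone arrays, and their summed intensity was 99100 on untreated 1, 22476 to 25144 on untreated 2 to 4 and 2861 to 4005 with milrinone. Amhr2, Cyp17a1, Fst, Nr5a1, Star and Tnfaip6 of that list had values only on untreated arrays and Amh had none on any. A Tnfaip6 probe set was listed only on untreated 2, at 14.4. Values of single markers given here are those of 1 probe set for each gene. Gja1 had 3430 to 9322 on the untreated and 25.8 to 426 on the milrinone arrays. Grem1 had 1106 to 5704 on the untreated arrays and 54.2 to 96.1 on milrinone 1 to 3. Both passed the test described below (adjusted p = 0.0109 and 0.00482 in limma). Hsd3b1 had 2116 to 15429 against 224 and 165 on milrinone 2 and 3, and was not tested. Not every marker of the list was lost in milrinone. Where listed, Kitl had 56.5 to 89.5 on the untreated and 56.2 to 96.0 on the milrinone arrays. Has2 had 44.8 and 31.2 against 41.5 and 61.6, and Nr5a2 had 1125 to 3223 against 836 to 1193. The summed intensity of blood, stromal and endothelial markers followed the order of the granulosa, cumulus and theca sum. It was 10831 on untreated 1, 1736 to 3627 on untreated 2 to 4 and 679 to 991 with milrinone. Its single markers did not all follow that order. The stromal markers Col1a2, Col3a1 and Dcn were highest on untreated 1, at 2550, 3414 and 1927. The blood cell marker Lyz2 was highest on untreated 3, at 740, Cd68 on untreated 4, at 135, and Csf1r on untreated 1, at 434. Cdh5, Col1a1, Col1a2, Dcn, Hba-a1, Lyz2 and Pdgfra of that list had values only on untreated arrays and Pecam1 had none on any. The endothelial marker Kdr had 391 to 555 on the untreated and 355 to 456 on the milrinone arrays, and Tek 101 to 193 and 151 to 171. The Actb control probes, whose 3' over 5' ratio rises as RNA or its copies shorten, gave ratios of 6.87 to 13.1 for untreated and 11.6 to 20.4 for milrinone arrays. The same ratio of the Gapdh control was 6.23 to 7.68 and 6.09 to 8.25, so it did not shift with the group as that of Actb did. Because each array received the same mass of cRNA, a level is a share of a sample's RNA, and fewer cells of a type and less RNA per cell cannot be told apart. The part of the marker levels and of the Actb ratio in the results on PKA genes was not tested.

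No PKA probe set passed the test between milrinone and untreated oocytes. Testing required values on 3 or more of the 4 arrays of both groups, which held for 14 of the 26, from 7 of the 9 genes, and for 36.2% of all probe sets that are not controls. All differences are milrinone minus untreated in log2(intensity + 16), a scale that understates the change of dim probe sets. Of the 14, 0 had an adjusted p under 0.05 in limma (Benjamini-Hochberg over 16288 tested probe sets), where 0.117% of all tested probe sets passed, all of them lower in milrinone. Without untreated 1 the count was again 0, where 0.424% of all tested passed. At an unadjusted p under 0.05 there were 2 members, both of them Prkar2b probe sets and both lower, where 9.63% of all tested reached that level (652 lower and 916 higher). Without untreated 1 there were again 2, where 8.24% of all tested did. The members' median difference was -0.05, with 10 probe sets lower and 4 higher, against a median of 0.06 over all tested. The median size of a difference, regardless of sign, was 0.22 for the members and 0.16 for all tested. Without untreated 1 both were 0.13, with 8 members lower and 6 higher.

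**Figure D1:**
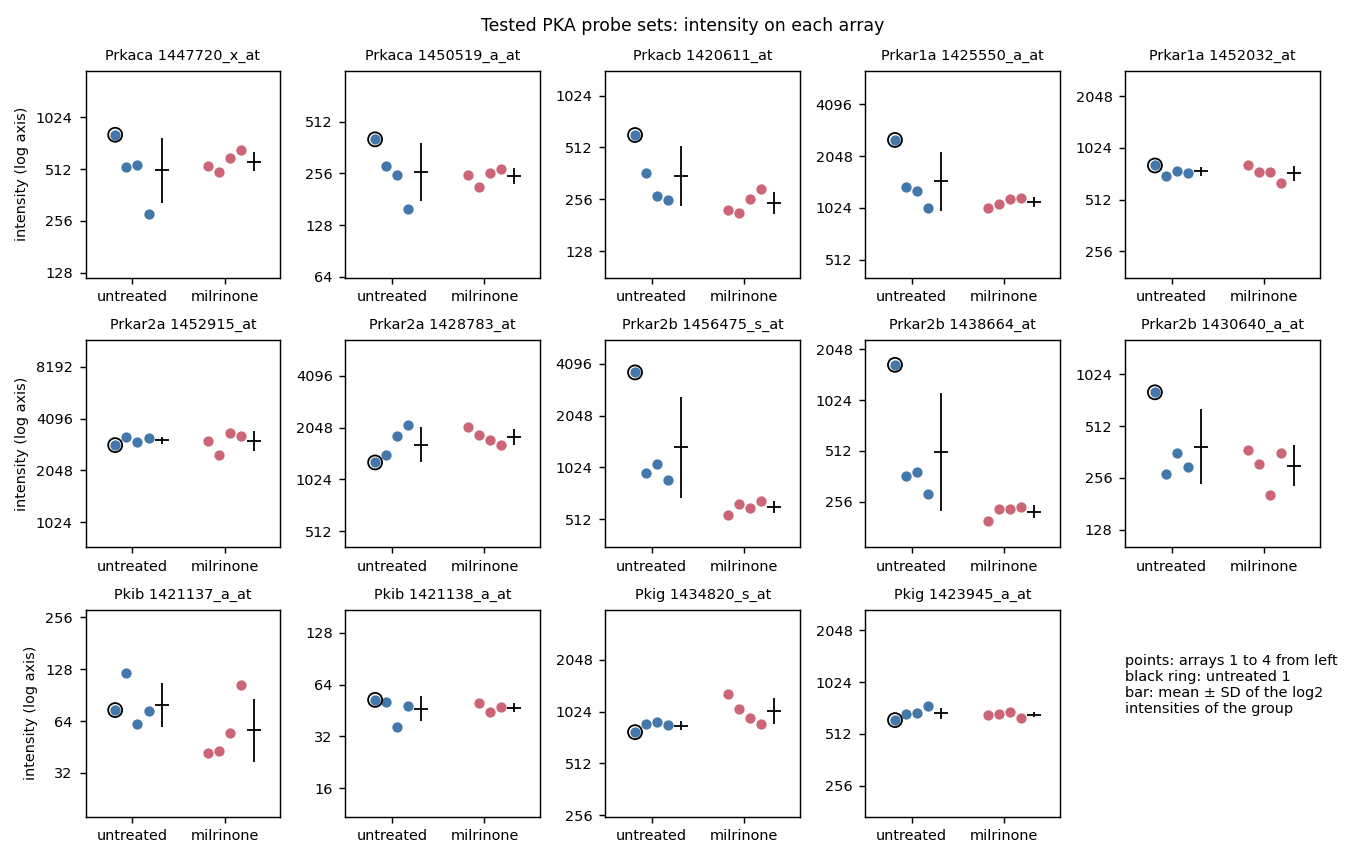
Intensity (log axis) of the 14 tested PKA probe sets on each array, with untreated arrays in blue, milrinone arrays in red, a black ring around untreated 1, and bars for the mean ± SD of the group's log2 intensities. In 2 of the 3 Prkar2b panels the 4 milrinone points lie below all 4 untreated points; in the other panels the groups overlap.

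Of the catalytic subunits, Prkaca encodes the broadly expressed form of the kinase and was tested with both of its probe sets. The brighter, 1447720_x_at, gave 810, 523, 540 and 282 on untreated 1 to 4 and 530, 495, 591 and 663 on milrinone 1 to 4. The other, 1450519_a_at, had 404, 284, 252 and 159 on the untreated arrays and 251, 214, 256 and 273 in milrinone. In both, untreated 1 was the highest and untreated 4 the lowest of the 8 arrays, so the milrinone arrays lay inside the untreated range. The difference was 0.16 (SE 0.27, 95% interval -0.43 to 0.76) for the first, or 0.38 without untreated 1, and -0.11 without untreated 4. It was -0.07 (SE 0.24, interval -0.61 to 0.46) for the second, or 0.13 without untreated 1. The adjusted p values with all arrays were 0.842 and 0.925 (limma). The sign of either difference thus depended on which untreated array was kept.

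Prkacb encodes the other catalytic subunit, and its several start exons give several forms of the kinase. Its tested probe set, 1420611_at, had 605, 366, 269 and 253 on the untreated arrays and 221, 212, 256 and 295 in milrinone. Untreated 1 and 2 were above every milrinone array and untreated 3 and 4 were within the milrinone range. The difference was -0.50 (SE 0.26, interval -1.07 to 0.07, adjusted p = 0.534 in limma) and -0.24 (interval -0.65 to 0.16) without untreated 1. Of its other 2 probe sets, 1420610_at was listed on untreated 2 at 33.5 and on milrinone 3 at 48.1, and 1457197_at on no array.

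Prkar1a encodes the type I regulatory subunit of most tissues, and its 2 tested probe sets did not behave alike. Probe set 1425550_a_at had 2540, 1353, 1276 and 1027 on the untreated arrays and 1016, 1075, 1148 and 1173 in milrinone. Probe set 1452032_at had 809, 706, 754 and 729 against 813, 740, 744 and 638. The first was highest on untreated 1 by a wide margin, while the second was level across the 8 arrays. The log2 ratio of the first to the second was 1.63 on untreated 1. It was 0.49 to 0.92 on untreated 2 to 4 and 0.32 to 0.86 in milrinone, so the probe sets parted mainly on that array. Their differences were -0.40 (SE 0.24, interval -0.93 to 0.13, adjusted p = 0.570 in limma) and -0.03 (SE 0.13, interval -0.32 to 0.26, adjusted p = 0.936). Without untreated 1 they were -0.13 and 0.00. The last Prkar1a probe set, 1447635_at, was listed only on untreated 3 and 4, at 19.5 and 25.2. The interval of 1452032_at spans folds of 0.799 to 1.19.

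Prkar1b encodes the type I subunit known mainly from the nervous system, and it was the member whose listing differed most between the groups. Its probe set 1416753_at had 353, 311, 290 and 342 on the untreated arrays and no value on any of the 4 milrinone arrays. The untreated values lay close together, with a mean of 324 ± 28.9 (SD, n = 4), and untreated 1 did not stand apart in them. Being listed on all 4 untreated and no milrinone array was found for 212 of 45037 probe sets that are not controls, or 0.471%. The reverse was found for 0.0333% of them and for no member. Of the 859 probe sets listed on all 4 untreated arrays with a mean inside the range of these values, 14 had no value in milrinone (1.63%) and 779 were listed on all 4 milrinone arrays (90.7%). What signal leaves a cell empty is unknown, so no fold is given and the probe set was not tested.

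The other Prkar1b probe sets were listed on fewer arrays. Probe set 1434325_x_at was listed only on untreated 1, at 188, and 1440132_s_at only on untreated 1 and 2, at 178 and 120. Probe set 1440133_x_at had 116, 105 and 112 on untreated 1 to 3 and 126 and 104 on milrinone 1 and 4, and 1416754_at was listed on no array. Of the 4 Prkar1b probe sets with any value, 3 were listed on untreated arrays alone, and the one listed in both groups had overlapping values. The suffix x marks probe sets with probes that can match other sequences, so these do not all measure Prkar1b to the same degree, and a share that comes from other transcripts was not tested.

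**Figure D2:**
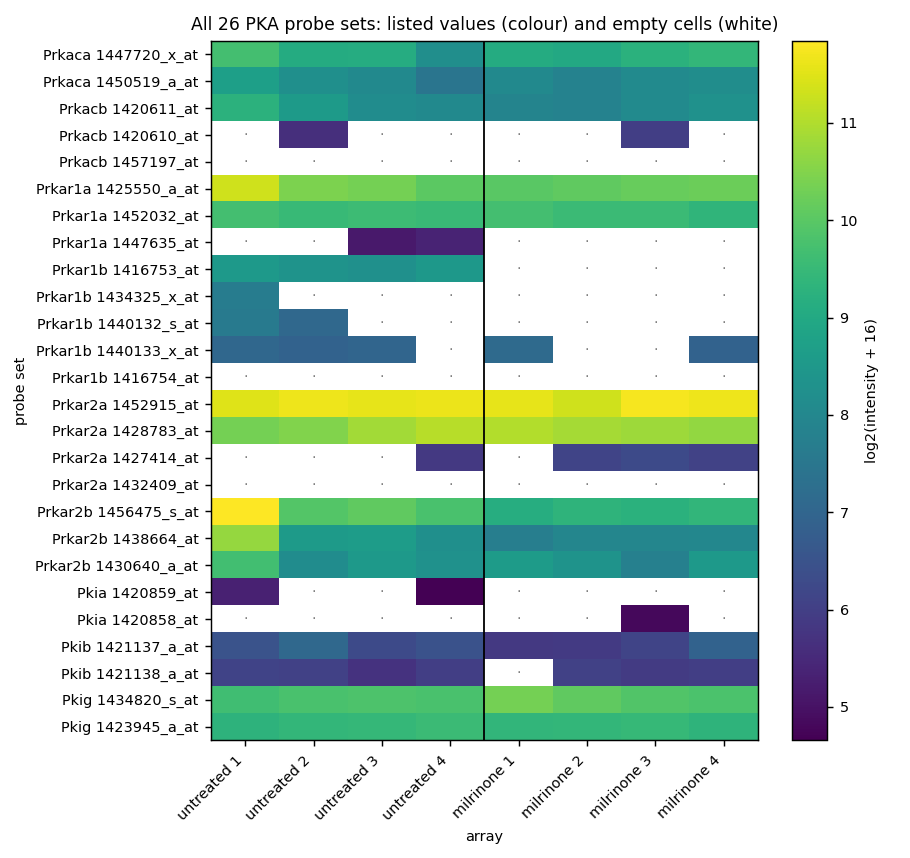
Values of all 26 PKA probe sets (rows) on the 8 arrays (columns), as log2(intensity + 16) in colour, with empty cells in white. Prkar1b 1416753_at is filled on the 4 untreated arrays and empty on the 4 milrinone arrays, and 13 of the 26 rows are filled throughout.

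Prkar2a encodes the type II subunit of most tissues, and neither of its tested probe sets separated the groups. Probe set 1452915_at had 2873, 3204, 3013 and 3177 on the untreated arrays and 3054, 2526, 3396 and 3228 in milrinone. Its difference was -0.01 (SE 0.11, interval -0.26 to 0.23, adjusted p = 0.968 in limma), an interval that spans folds of 0.836 to 1.17, and -0.05 without untreated 1. The second, 1428783_at, had 1286, 1416, 1839 and 2125 against 2067, 1866, 1743 and 1616. Untreated 1 was the lowest array here, the reverse of its place for Prkar2b. The difference was 0.15 (SE 0.17, interval -0.22 to 0.52) and 0.04 without untreated 1. Both probe sets name the same source sequence, so they are not separate checks. Of the others, 1427414_at was listed on untreated 4 at 41.9 and on milrinone 2, 3 and 4 at 53.9, 61.8 and 51.0, and 1432409_at on no array.

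Prkar2b encodes the other type II subunit, whose message is known to be induced through FSH and cAMP in rat granulosa cells, and it had the largest differences among the members. The brightest probe set, 1456475_s_at, gave intensities of 3658, 953, 1069 and 868 without and 542, 626, 595 and 658 with milrinone. Probe set 1438664_at, which names the same source sequence, had 1655, 366, 382 and 284 against 197, 232, 232 and 237. In both, all 4 milrinone arrays were below all 4 untreated arrays, and untreated 1 was several times above the other untreated arrays. Groups that do not overlap in this direction were found for 2.74% of all tested probe sets, and for 3.99% without untreated 1. In the other direction it was 0 of the members, beside 5.06% of all tested and 6.26% without untreated 1.

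The differences were -1.13 (SE 0.38, interval -1.99 to -0.28, unadjusted p = 0.0141, adjusted p = 0.469) for 1456475_s_at and -1.13 (SE 0.45, interval -2.12 to -0.14, unadjusted p = 0.0292, adjusted p = 0.495) for 1438664_at in limma. Neither passed. Without untreated 1 the differences were -0.65 (SE 0.13, interval -0.95 to -0.36, adjusted p = 0.122) and -0.58 (SE 0.15, interval -0.92 to -0.23, adjusted p = 0.351), so untreated 1 raised both the difference and its error. Over the 18 alternatives the adjusted p of 1456475_s_at ran from 0.0798 to 0.780 and its difference from -1.34 to -0.65. That of 1438664_at ran from 0.130 to 0.780, with differences from -1.40 to -0.58.

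The remaining Prkar2b probe set did not follow these 2. Probe set 1430640_a_at, from another source sequence, had 804, 270, 355 and 296 on the untreated arrays and 369, 309, 203 and 355 in milrinone. It was highest on untreated 1 as well, but the other 7 arrays were mixed between the groups. Its difference was -0.35 (SE 0.32, interval -1.07 to 0.37, adjusted p = 0.699 in limma) and -0.01 (interval -0.49 to 0.47) without untreated 1. The log2 ratio of 1456475_s_at to 1430640_a_at was 1.50 to 2.16 on the untreated arrays and 0.54 to 1.48 in milrinone. These ranges nearly touched, at 1.50 and 1.48, but did not overlap. How often ratios of same-gene probe sets separate the groups over the whole array was not counted. The ratio of 1438664_at to 1430640_a_at was -0.05 to 1.03 and -0.86 to 0.18, which did overlap. The ratio of 1456475_s_at to 1438664_at had a mean of 1.37 in each group. Whether the probe sets of this gene differ from each other was not tested, and a level for the gene as a whole is not given.

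**Figure D3:**
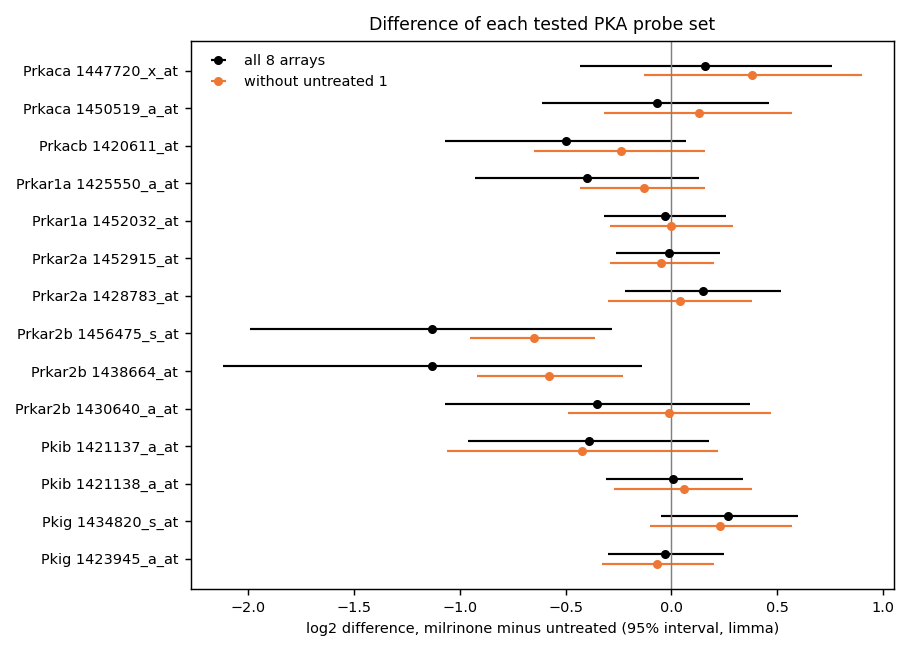
Log2 difference (milrinone minus untreated) of each of the 14 tested PKA probe sets with its 95% interval from limma, with all 8 arrays (black) and without untreated 1 (orange). The intervals of Prkar2b 1456475_s_at and 1438664_at lie below 0 in both fits, at -1.13 and -1.13 and then at -0.65 and -0.58, while those of the other 12 include 0.

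Prkar2b 1456475_s_at and 1438664_at, though not 1430640_a_at, were highest on untreated 1, then on the other untreated arrays, then in milrinone. Both the summed granulosa, cumulus and theca markers and the summed blood, stromal and endothelial markers followed that order. The summed oocyte markers were level. On untreated 2 to 4 the granulosa, cumulus and theca sum was 22476 to 25144, and in milrinone it was 2861 to 4005. Probe set 1456475_s_at had 868 to 1069 and 542 to 658 there. Within milrinone the order differed, milrinone 4 being highest for both probe sets and lowest for both sums. The part of the cells of these marker lists in the differences of these probe sets was not tested. The 5 probe sets of other genes whose pattern was most like 1456475_s_at, by Pearson's r of log2 values over the 8 arrays among 13303 candidates, were those of Asah1, which encodes acid ceramidase (0.996), Gas6, which encodes a ligand of receptor tyrosine kinases (0.991), Ptprd, which encodes a receptor tyrosine phosphatase (0.990), Slc25a4, which encodes a mitochondrial ADP/ATP carrier (0.990), and Nme2, which encodes a nucleoside diphosphate kinase (0.989). Without untreated 1 the same 5 had r of 0.948 to 0.977 over 7 arrays. Asah1 was at 898 on untreated 1, 308 to 344 on untreated 2 to 4 and 224 to 246 in milrinone, and Gas6 was at 1799, 592 to 678 and 356 to 434 in the same order. These arrays fall into separate groups and the genes were picked for likeness, so r is a description with no test. The 5 genes differed by -0.59 to -1.82 and none passed (limma, adjusted p from 0.460 to 0.490).

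**Figure D4:**
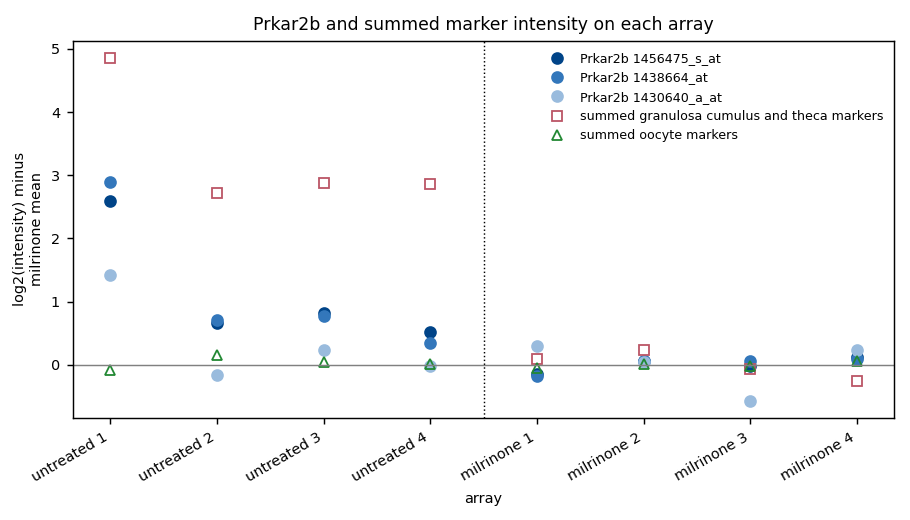
Log2 intensity minus the milrinone mean (vertical axis) on each array (horizontal axis) for the 3 Prkar2b probe sets (filled blue circles), the summed granulosa, cumulus and theca markers (open squares) and the summed oocyte markers (open triangles). Untreated 1 is the highest array for the markers of granulosa, cumulus and theca cells and for all 3 Prkar2b probe sets, and the oocyte markers stay near 0.

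The inhibitor genes were listed to very different extents. Pkig encodes the inhibitor found in most tissues, and both of its probe sets were listed on all arrays. Probe set 1423945_a_at had 616, 671, 675 and 740 on the untreated arrays and 657, 668, 690 and 634 in milrinone, a difference of -0.03 (SE 0.13, interval -0.30 to 0.25, adjusted p = 0.951 in limma) and of -0.07 without untreated 1. Probe set 1434820_s_at had 778, 869, 896 and 861 against 1291, 1063, 942 and 873. Milrinone 1, 2 and 3 were above every untreated array and milrinone 4 was not, so the groups overlapped by 1 array. The difference was 0.27 (SE 0.15, interval -0.05 to 0.60, adjusted p = 0.551 in limma) and 0.23 without untreated 1. The log2 ratio of 1434820_s_at to 1423945_a_at was 0.21 to 0.40 on the untreated and 0.44 to 0.96 on the milrinone arrays. These ranges did not overlap, but the share of all same-gene pairs for which that holds was not counted. The suffix s marks a set whose probes match several transcripts, and the part of such matches in this ratio was not tested.

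Pkib encodes an inhibitor known best from testis, and its probe sets were dim. Probe set 1421137_a_at had 74.1, 121, 61.1 and 72.8 on the untreated arrays and 41.7, 42.9, 54.3 and 104 in milrinone. Milrinone 1, 2 and 3 were below every untreated array, and milrinone 4 was above 3 of them. The difference was -0.39 (SE 0.26, interval -0.96 to 0.18, adjusted p = 0.603 in limma) and -0.42 without untreated 1. Probe set 1421138_a_at had 36.5 to 52.2 on the untreated arrays and 44.1 to 49.9 on 3 milrinone arrays, with milrinone 1 empty and left out of the fit, and differed by 0.01 (interval -0.31 to 0.34, adjusted p = 0.976 in limma), or 0.06 without untreated 1.

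Pkia encodes the inhibitor known from muscle and brain, and its probe sets had almost no values. Probe set 1420859_at was listed on untreated 1 at 24.1 and on untreated 4 at 9.26, and 1420858_at on milrinone 3 at 12.3. Neither Pkia nor Prkar1b had a tested probe set. Of the 12 PKA probe sets not tested, 9 were listed on at least 1 array and 3 on none. Those are 3 of all 26 PKA probe sets, where 35.5% of all probe sets that are not controls were listed on no array.

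Across the 14 tested probe sets, untreated 1 was the highest array for 8 and the lowest for 3, where over all tested probe sets it was the highest for 17.0% and the lowest for 38.2%. The 8 were both of Prkaca, the 1 of Prkacb, 1 of Prkar1a, all 3 of Prkar2b and 1 of Pkib, and the 3 were 1 of Prkar2a and both of Pkig. The number of PKA probe sets listed was 19, 18, 17 and 18 on untreated 1 to 4 and 14, 15, 17 and 16 on milrinone 1 to 4.

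In the rest of the cAMP pathway, 1 of 66 tested probe sets fell and 0 rose, where 0.117% of all tested passed. These probe sets stand for 41 genes of 6 lists chosen for this pathway. A difference given below for a gene is that of its brightest tested probe set, unless another is named. The one that fell was 1445539_at of Pde7b, whose product breaks down cAMP. It had 525, 1068, 852 and 671 on the untreated arrays, 104, 91.9 and 92.8 on milrinone 2 to 4 and no value on milrinone 1. Its log2 difference was -2.78 (SE 0.24, adjusted p = 0.00338 in limma), or -2.95 without untreated 1, and it passed under every alternative that gave it a value. Other Pde7b probe sets were dim and not tested. Probe set 1421353_at was listed on untreated 1 at 23.2 and on milrinone 2 and 4 at 33.6 and 33.8, and 1450213_at only on untreated 1, at 25.3. At an unadjusted p under 0.05 in limma, 4 of the 66 were lower and 1 higher, where 9.63% of all tested reached that level. Their median difference was -0.01, with 34 lower and 32 higher, against 0.06 over all tested.

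Genes that make cAMP had 0 of 11 tested probe sets past the threshold and a median difference of -0.11. Gpr3, the receptor that keeps cAMP high in the oocyte, differed by 0.15 (interval -0.31 to 0.61), the related receptor gene Gpr12 by 0.45, with untreated 4 empty and left out of the fit, and the adenylyl cyclase genes Adcy2 by -0.28 and Adcy9 by -0.22. Without untreated 1 these were 0.22 for Gpr3, 0.29 for Gpr12, -0.34 for Adcy2 and -0.21 for Adcy9. Dimmer tested probe sets of Adcy9 differed by -0.02, 0.05 and -0.14. A brighter Gpr12 probe set, 1449472_at, was listed only on milrinone 1 and 4, at 273 and 246, and was not tested. Among genes that break down cAMP, 1 of 10 passed and the median was 0.12. Pde3b differed by 0.20 (0.10 without untreated 1) and Pde8b by 0.26 (0.23). Pde3a itself was not tested, since its brightest probe set, 1450284_at, was listed on untreated 2 at 174 and on milrinone 1, 2 and 3 at 297, 289 and 236. Its dimmer probe set 1431914_at was listed on 2 arrays of each group, at 36.0 and 42.2 and at 50.0 and 55.3, and the remaining one on no array.

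Genes of anchoring proteins, which place type II PKA in the cell, had 0 of 19 tested probe sets past the threshold and a median of -0.03. Akap8 differed by 0.40 (interval -0.01 to 0.82), Akap7 by 0.25 and Akap2 by -0.50. Without untreated 1 they differed by 0.24, 0.18 and -0.28. The dimmer tested probe set of Akap8, 1433669_at, differed by 0.04, and that of Akap2, 1449168_a_at, by -0.50. For CREB and its coactivators 0 of 8 passed, with a median of 0.00, and Crebbp differed by 0.07, Crtc3 by 0.11 and Crtc1 by -0.02, or by 0.04, 0.17 and -0.11 without untreated 1. Of the other cAMP effectors 0 of 6 passed, with a median of -0.25. Rapgef3, a cAMP-activated exchange factor for Rap proteins, differed by -0.34 and Prkx, a kinase related to the PKA catalytic subunits, by -0.17. Without untreated 1 they differed by -0.32 and -0.17. Dimmer tested probe sets of Rapgef3 differed by -0.35 (1424471_at) and -0.44 (1437012_x_at, unadjusted p = 0.0445, adjusted p = 0.512 in limma). Those of Prkx differed by 0.03 and -0.02. Of the meiotic kinases and phosphatases downstream 0 of 12 passed, with a median of 0.09. Wee2 differed by 0.10 (interval -0.06 to 0.26), Cdc25b by 0.17 (-0.26 to 0.59) and Cdc25c by 0.30 (-0.07 to 0.67). Without untreated 1 these were 0.04, 0.07 and 0.21. Among these lists, no probe set was listed on all 4 arrays of one group and none of the other.

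A dimmer probe set of Creb1, 1452901_at, was singled out after its values were seen. It had 243, 97.3, 83.4 and 73.6 on the untreated arrays and 28.1, 30.2, 29.9 and 41.9 in milrinone. The groups did not overlap, which in this direction held for 2.74% of all tested probe sets. Probe set 1452901_at differed by -1.40 (interval -2.05 to -0.74, adjusted p = 0.220 in limma). Without untreated 1 it differed by -1.06 (adjusted p = 0.0148 in limma), in a fit where 0.424% of all tested probe sets passed. Its adjusted p ran from 0.0103 to 0.634 across the 18 alternatives, of which 3 passed. Probe set 1428755_at of Creb1 had 210, 79.2 and 96.6 on untreated 1 to 3 and 32.3 on milrinone 4, and was not tested. The brightest tested probe set of Creb1, 1423402_at, differed by -0.03, or -0.17 without untreated 1.

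**Figure D5:**
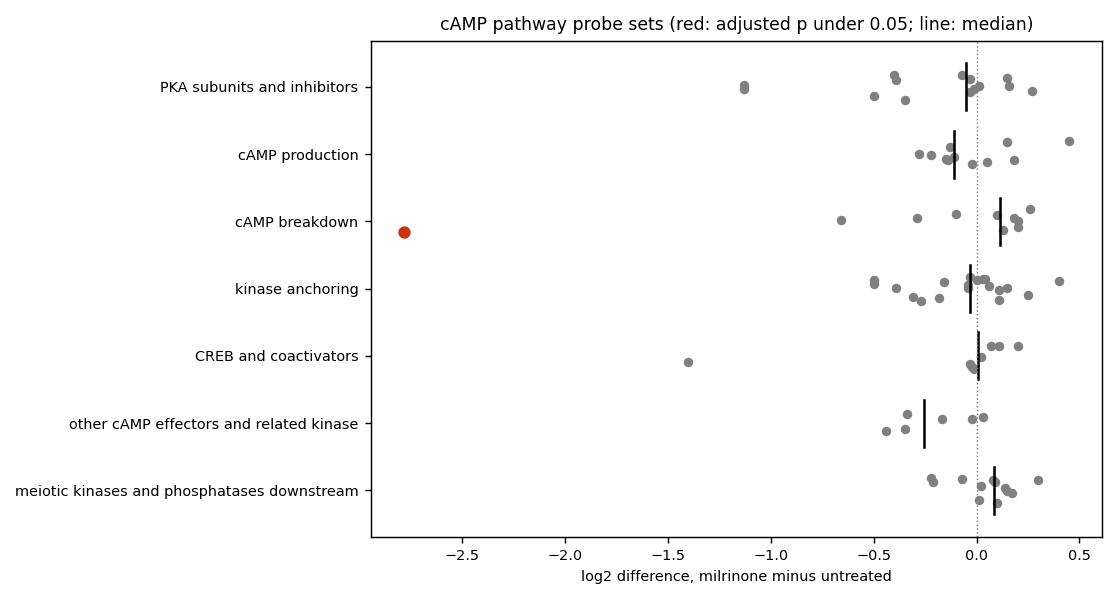
Log2 difference (milrinone minus untreated, horizontal axis) of the tested probe sets of PKA and of the 6 other cAMP pathway lists, with the median of each list as a black line and probe sets with an adjusted p under 0.05 in red. The only red point is Pde7b 1445539_at, at -2.78, and the PKA median is -0.05.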

How the data were processed

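RNA of 4 untreated and 4 milrinone samples was measured on single-colour arrays. The deposited table gives each probe set's intensity, on a linear scale. The authors' software, scaling and rule for empty cells were not given in the sources used here. Gene names came from the platform annotation, with 34741 of 34945 single symbols updated by Entrez identifier to RefSeq. The deposited scaling was kept, and empty cells stayed empty. The 16288 probe sets with values on 3 or more arrays of both groups were fitted as log2(intensity + 16) in limma 3.58.1 under R 4.3.3, using lmFit and a trended, two-sided eBayes test with Benjamini-Hochberg adjustment and a threshold of 0.05. Tables and plots used Python 3.11.15 and matplotlib 3.10.9. The number of arrays and their spread limit the precision. Log2 differences had a median standard error of 0.24 among tested PKA probe sets and 0.17 among all tested, or 0.15 and 0.16 without untreated 1.

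On data simulated for this comparison on 16288 probe sets, with 200 changed, 68% of 2-fold changes were found, and 96% of 4-fold, 100% of 8-fold and 98% of 16-fold ones. False calls made up 14 of 195. The data themselves gave 19 calls, and fewer calls make the Benjamini-Hochberg cut-off stricter. Tested PKA probe sets also had a larger median standard error, 0.24 against 0.17 for all tested. These rates therefore do not give the chance of finding a change in a PKA probe set.

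The members, lists and tests were chosen with earlier results of these data known. Every PKA probe set is accounted for. Of each other list, the up to 3 tested genes with the smallest p by their brightest probe set are named, with Pde3a, Gpr3 and Wee2. Alternatives changed the pseudocount, the filter, the scaling, the trend, the weights, a replicate block and the arrays kept.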

Additional observations from a re-analysis of the deposited data

Results flagged for a closer look

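In groups of 4 arrays, 1 array can lie far from the other 3, measured as its gap to the nearest other array divided by the range of the group on the log2 scale. Of 59 groups examined among the tested PKA and named pathway probe sets and Prkar1b, 5 had such an array. For independent groups chance gives about 1 in 20, or 2.95. These groups share the same 8 arrays, and Prkar2b 1456475_s_at and 1438664_at name the same source sequence. The count of 5 is therefore a description, and an excess over chance was not tested. Untreated 1 was the high array for Prkar2b 1456475_s_at (ratio 0.856, intensity 3658) and for Prkar2b 1438664_at (0.836, intensity 1655). Milrinone 1 was the low array for Prkar2b 1438664_at (0.874, intensity 197). Untreated 4 was the low array for Crtc3 1436379_at (0.894, intensity 235), and untreated 1 the low array for Wee2 1436751_at (0.832, intensity 8587).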

How the results depend on the processing

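The count of PKA probe sets past the threshold was 0 under all 18 alternatives (limma). Of 14 PKA probe sets, 7 kept the sign of their difference under every alternative that gave one, all 3 of Prkar2b among them. With quantile normalization the overall median difference went from 0.06 to -0.13, the members' median to -0.29 and their split to 13 lower and 1 higher, with 3 lower at an unadjusted p under 0.05. Centring on the array medians gave 11 lower and 3 higher. Signs turned only for small differences. With quantile normalization Prkaca 1447720_x_at differed by -0.08, Prkar2a 1428783_at by -0.04, Pkib 1421138_a_at by -0.18, Crebbp by -0.07, Crtc3 by -0.13 and Cdc25b by -0.02. Centring on the medians gave -0.02 for Pkib 1421138_a_at, and array weights gave 0.03 for Prkar2a 1452915_at and -0.07 for Cdc25b. Leaving out 1 array at a time (without untreated or milrinone replicate 1 to 4) gave ranges across 0 of -0.11 to 0.38 for Prkaca 1447720_x_at, -0.29 to 0.13 for Prkaca 1450519_a_at, -0.08 to 0.03 for Prkar1a 1452032_at, -0.07 to 0.07 for Prkar2a 1452915_at, -0.07 to 0.06 for Pkib 1421138_a_at, -0.07 to 0.02 for Pkig 1423945_a_at, -0.07 to 0.18 for Crtc3 and -0.11 to 0.05 for Crtc1. Leaving out untreated 1 and 4 together, chosen after seeing the data, gave 0.00 for Prkar1a 1452032_at, -0.03 for Crebbp, -0.06 for Crtc3 and -0.20 for Cdc25b. The pathway count of 1 became 0 when a value on all 8 arrays was required, since Pde7b lacked 1, and 2, with Creb1 1452901_at, with array weights, without untreated 1 and without untreated 1 and 4. The count over all tested probe sets, 19, became 12 when listing on all 8 arrays was required, 106 with array weights, 85 without untreated 1 and 4, and 9 (without milrinone 3) to 69 (without untreated 1) when 1 array was left out. With the replicate number as a block it was 13, with 0 PKA and 1 pathway probe set. Same-numbered arrays had correlations of deviations from the group means of 0.0333, -0.199, -0.0236 and -0.266. They were thus not alike in these deviations, which cannot show whether same-numbered samples were collected or processed together. The cause of these changes was not tested. Without values for empty cells, the milrinone level of Prkar1b 1416753_at is not bounded.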
